A study of Mus musculus with 6 samples.

Results

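The RAS, RAF and MYC oncogenes and their partners comprise 8 genes here. Hras and Nras encode RAS switches, Braf a kinase that RAS activates, and Nf1 a brake on RAS. Myc and Mycn encode transcription factors, Ccnd1 encodes cyclin D1 and Cdk4 its kinase partner. They were chosen by gene name, and each was found once among the 23358 gene entries of the count table, 7 of the 8 under their current symbol and Hras under its older symbol Hras1. RNA was sequenced from 6 spontaneous tumors, each from 1 female mouse. All mice carried NT3, a transgene for NF-κB-inducing kinase (NIK) without its TRAF3-binding domain, which is silent until Cre removes a stop cassette. Tumors 13, 18 and 25 grew on the trunk in Osx-Cre;NT3 mice, with latencies of 150, 168 and 115 days. Tumors 27 and 36 were perineal and tumor 29 was from the trunk of FSP1-Cre;NT3 mice, with latencies of 101, 72 and 52 days for tumors 27, 29 and 36. In Osx-Cre;NT3 mice, Cre is driven by Osterix (Sp7) and is held off by doxycycline chow until weaning. The Osx-Cre parent was on C57Bl/6J mixed with CD1. In FSP1-Cre;NT3 mice, Cre is driven by Fibroblast-specific protein 1 (S100a4), and the FSP1-Cre parent was on FVB/n. The other parent of both lines was an NT3 female on C57Bl/6J. Both drivers are also known to act in some hematopoietic cells. Normal tissue and Cre-negative mice were not analysed here, so a level below is the level in a tumor and not a change from normal tissue.

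RAS proteins cycle between a GTP-bound, active form and a GDP-bound, inactive form. Exchange factors load GTP, GTPase-activating proteins such as neurofibromin, the product of Nf1, remove it, and active RAS recruits RAF kinases, which pass the signal through MEK to ERK. ERK signaling and MYC raise the transcription of growth genes, and cyclin D with CDK4 or CDK6 phosphorylates the retinoblastoma protein so that cells can pass from G1 into S phase. RAS and RAF are switched mostly by GTP binding, mutation and phosphorylation, none of which an RNA level measures. The activity of the other proteins was not measured here either.

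Promoter sequence is shown for Cdk4, Nras and Braf because theirs carries letters through which MYC and related factors, or CREB and related factors, are known to bind DNA, and for Hras, which has neither, beside Nras. Of the 8 genes, 6 had an entry in the RefSeq promoter table for mouse build GRCm38.p6, and Myc and Ccnd1 had none. Each run is the 250 bases before the annotated start, 5′ to 3′ on the gene's own strand, with the E-box CACGTG or the cAMP response element TGACGTCA in capitals. Both motifs read the same on either strand, and they do not overlap one another in these runs. The Cdk4 run is chr10:127063285-127063534 on the + strand, the Nras run chr3:103058035-103058284 on the + strand, the Braf run chr6:39725464-39725713 on the - strand and the Hras run chr7:141194005-141194254 on the - strand.
Cdk4: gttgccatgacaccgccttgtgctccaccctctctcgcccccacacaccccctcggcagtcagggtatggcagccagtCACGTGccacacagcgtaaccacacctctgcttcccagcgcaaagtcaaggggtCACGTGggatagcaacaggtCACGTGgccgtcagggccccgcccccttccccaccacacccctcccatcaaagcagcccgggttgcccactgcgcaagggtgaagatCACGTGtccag
Nras: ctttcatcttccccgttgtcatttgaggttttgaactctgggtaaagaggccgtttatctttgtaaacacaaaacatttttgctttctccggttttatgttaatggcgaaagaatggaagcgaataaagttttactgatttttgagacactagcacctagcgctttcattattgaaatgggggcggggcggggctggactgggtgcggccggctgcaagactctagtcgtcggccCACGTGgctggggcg
Braf: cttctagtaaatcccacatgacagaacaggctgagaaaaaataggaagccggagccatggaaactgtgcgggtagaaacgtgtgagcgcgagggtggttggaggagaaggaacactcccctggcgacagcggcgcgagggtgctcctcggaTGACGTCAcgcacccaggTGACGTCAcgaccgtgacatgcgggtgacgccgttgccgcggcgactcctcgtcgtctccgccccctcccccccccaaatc
Hras: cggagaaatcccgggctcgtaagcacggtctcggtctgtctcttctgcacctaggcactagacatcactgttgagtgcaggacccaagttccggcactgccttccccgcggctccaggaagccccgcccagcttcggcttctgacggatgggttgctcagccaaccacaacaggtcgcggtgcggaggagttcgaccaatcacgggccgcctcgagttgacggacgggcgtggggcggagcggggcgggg
Cdk4 held 4 copies of CACGTG, which began 172, 118, 98 and 11 bases before the start, and Nras held 1, which began 15 bases before it. Of 32851 mouse promoter windows of the same length, 6.02% held at least 1 CACGTG and 0.0213%, or 7 windows, held at least 4. Braf held 2 copies of TGACGTCA, which began 99 and 81 bases before its start. At least 1 TGACGTCA was in 1.55% of the windows and at least 2 in 0.0304%, or 10 windows. Hras held neither motif but 3 copies of GGGCGG, the letters of a GC box searched on both strands. At least 1 GGGCGG was in 32.7% of the windows and at least 3 in 8.47%. Nras and Mycn held 2 each, Braf and Cdk4 1 each, and Nf1 0. The runs of Nf1 and Mycn held neither CACGTG nor TGACGTCA. These are matches of letters, and no binding was measured.

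Cdk4, the kinase that cyclin D activates, had the highest level per length of the 8 genes. Its gene lies at chr10:127063603-127067282 on the + strand. Levels are given first as CPM, counts scaled to the size of each library with TMM scaling, which compares a gene between tumors. Cdk4 had 384, 371 and 286 CPM in tumors 13, 18 and 25, and 248, 279 and 173 CPM in tumors 27, 29 and 36. All 3 FSP1-Cre;NT3 tumors were below all 3 Osx-Cre;NT3 tumors, and tumor 36 was lowest. The mean was 347 ± 53.4 CPM in Osx-Cre;NT3 and 233 ± 54.6 CPM in FSP1-Cre;NT3 tumors (SD, n = 3 each). The log2 fold change, FSP1-Cre;NT3 over Osx-Cre;NT3, was -0.57 with a standard error of 0.25, and it did not pass the quasi-likelihood test of edgeR, adjusted by Benjamini-Hochberg (unadjusted p = 0.0559, adjusted p = 0.458). Lines that did not overlap, with the FSP1-Cre;NT3 tumors lower, were found for 1 of the 8 genes and for 7.97% of all genes tested, and lines that did not overlap the other way for 0 of the 8 and 9.03% of all genes. The 3' end of Cdk4 touches the end of Tspan31 on the opposite strand, and whether reads were counted by strand is not given in the sources used here.

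Ccnd1, the cyclin that binds CDK4 and CDK6, lies at chr7:144929931-144939925 on the - strand. It had 368, 282 and 645 CPM in tumors 13, 18 and 25, and 436, 365 and 253 CPM in tumors 27, 29 and 36. Tumor 25 was highest and tumor 36 lowest, and the lines overlapped. The means were 432 ± 190 and 352 ± 91.9 CPM (SD, n = 3 each, Osx-Cre;NT3 first). The log2 fold change was -0.30 with a standard error of 0.37 (edgeR's adjusted p = 0.745), and it was 0.07 without tumor 25. Most of the spread of Ccnd1 therefore lay within the Osx-Cre;NT3 line. The 3' end of Ccnd1 overlaps LTO1 (chr7:144915100-144931701) on the opposite strand. Some reads of LTO1 could have been counted for Ccnd1 if strand was not used.

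Hras encodes a RAS switch of the plasma membrane and lies at chr7:141189934-141194004 on the - strand. It had 202, 201 and 123 CPM in tumors 13, 18 and 25, and 104, 127 and 77.3 CPM in tumors 27, 29 and 36. Tumors 13 and 18 stood above the other 4, and the lines overlapped because tumor 29 was slightly above tumor 25. The means were 175 ± 45.5 and 103 ± 24.7 CPM (SD, n = 3 each, Osx-Cre;NT3 first). The log2 fold change was -0.77 with a standard error of 0.28, the farthest from 0 of the 8 (edgeR's unadjusted p = 0.0302, adjusted p = 0.458). Without tumor 36 it was -0.60 (edgeR's unadjusted p = 0.0854), and over the 4 trunk tumors it was -0.47.

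Nras encodes another RAS switch and lies at chr3:103058285-103067914 on the + strand. It had 134, 108 and 160 CPM in tumors 13, 18 and 25, and 113, 108 and 110 CPM in tumors 27, 29 and 36. It varied least of the 8 genes, with a highest tumor 1.49 times the lowest, and 13.4% of all genes tested had a smaller ratio. The FSP1-Cre;NT3 tumors were close together at 110 ± 2.40 CPM and lay within the range of the Osx-Cre;NT3 tumors, which had 134 ± 26.1 CPM (SD, n = 3 each). The log2 fold change was -0.28 with a standard error of 0.20 (edgeR's adjusted p = 0.552).

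Braf encodes the RAF kinase most often mutated in human cancers and lies at chr6:39603237-39725463 on the - strand. It had 32.4, 29.7 and 63.1 CPM in tumors 13, 18 and 25, and 43.0, 37.1 and 33.6 CPM in tumors 27, 29 and 36. Tumor 25 stood above the other 5, and the FSP1-Cre;NT3 tumors lay inside the range of the Osx-Cre;NT3 tumors. The means were 41.7 ± 18.5 and 37.9 ± 4.72 CPM (SD, n = 3 each, Osx-Cre;NT3 first), and the log2 fold change of -0.14 with a standard error of 0.33 became 0.24 without tumor 25 (edgeR's adjusted p with all 6 tumors = 0.870). The 3' end of Braf overlaps Ndufb2 on the opposite strand, a subunit of respiratory complex I with a mean of 136 RPKM, so some reads of that gene could have been counted for Braf if strand was not used.

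Nf1 encodes neurofibromin, which switches RAS off, and lies at chr11:79339892-79581609 on the + strand. It had 24.2, 15.4 and 55.1 CPM in tumors 13, 18 and 25, and 44.6, 35.5 and 41.1 CPM in tumors 27, 29 and 36. It varied most of the 8, with a highest tumor 3.59 times the lowest, a ratio that 70.1% of all genes tested stayed under. Both its highest and its lowest values were in Osx-Cre;NT3 tumors, which had 31.5 ± 20.9 CPM against 40.4 ± 4.59 CPM in FSP1-Cre;NT3 tumors (SD, n = 3 each). The log2 fold change was 0.36 with a standard error of 0.46 (edgeR's adjusted p = 0.754), and it ran from 0.02 without tumor 18 to 0.99 without tumor 25. Introns of Nf1 hold Omg, Evi2a and Evi2b on the opposite strand, with means of 0.0413, 6.64 and 2.59 RPKM. The length given for Nf1, 11847 bases, is far below its span on the chromosome, as when exons alone are counted. Reads inside introns would then not be counted for Nf1, and this was not tested.

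Myc encodes a transcription factor of growth and metabolism and lies at chr15:61985341-61990361 on the + strand. It had 92.7, 59.6 and 97.2 CPM in tumors 13, 18 and 25, and 95.3, 109 and 50.3 CPM in tumors 27, 29 and 36. The lowest tumor of each line was well under the other 2, and the line means of 83.2 ± 20.6 and 84.9 ± 30.7 CPM (SD, n = 3 each, Osx-Cre;NT3 first) were close. The log2 fold change was 0.03 with a standard error of 0.34 (edgeR's adjusted p = 0.976), and it was 0.30 without tumor 36. An error of this size leaves room for a difference in either direction.

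Mycn, the relative of Myc best known from neuroblastoma, lies at chr12:12936093-12941836 on the - strand. It had 13.1, 13.8 and 18.2 CPM in tumors 13, 18 and 25, and 19.8, 18.4 and 7.97 CPM in tumors 27, 29 and 36. Tumor 36 was lowest, and the Osx-Cre;NT3 tumors lay within the range of the FSP1-Cre;NT3 tumors. The means were 15.0 ± 2.74 and 15.4 ± 6.47 CPM (SD, n = 3 each, Osx-Cre;NT3 first), and the log2 fold change of 0.04 with a standard error of 0.38 (edgeR's adjusted p = 0.974) was 0.35 without tumor 36.

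**Figure D1:**
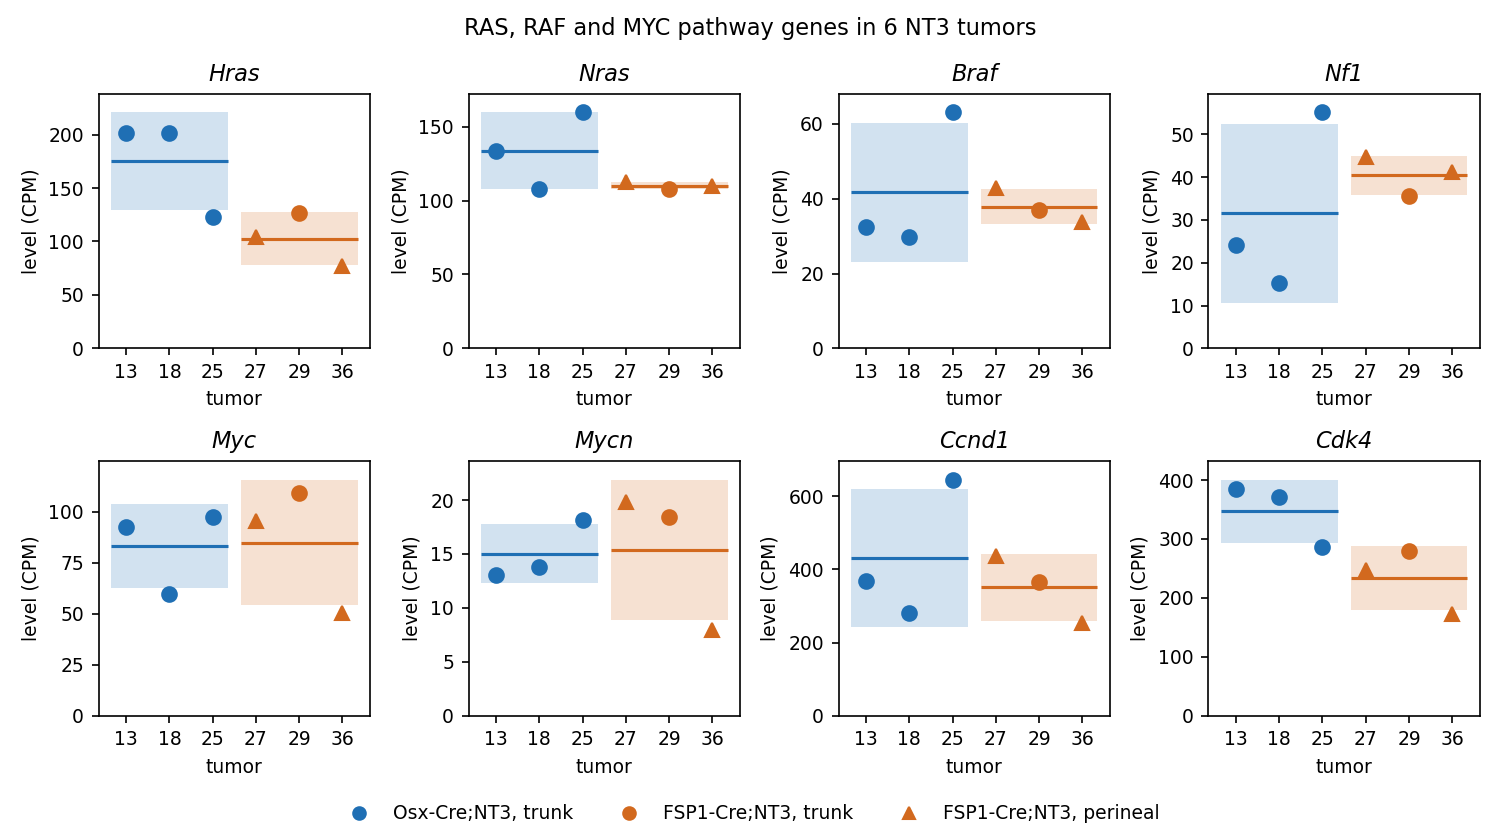
Levels of the 8 genes in each of the 6 tumors (TMM-scaled CPM, linear axes from 0), with 1 point per tumor, blue for Osx-Cre;NT3 and orange for FSP1-Cre;NT3, triangles for perineal tumors, a horizontal line at the mean of each line of mice and a shaded band of ± 1 SD. The FSP1-Cre;NT3 points of Cdk4 all lie below the Osx-Cre;NT3 points, tumor 25 is highest for Nras, Braf, Nf1 and Ccnd1, and tumor 36 is lowest for Hras, Myc, Mycn, Ccnd1 and Cdk4.

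Between the lines, none of the 8 genes passed the adjusted test, and neither did any other gene. With Benjamini-Hochberg adjustment, edgeR's quasi-likelihood test called 0 of 16415 genes tested, or 0%, at an adjusted p under 0.05, and the smallest adjusted p was 0.359. At an unadjusted p under 0.05, 1 of the 8 genes (Hras) was lower in FSP1-Cre;NT3 tumors, against 570 of all genes (3.47%), and 0 were higher, against 1200 (7.31%). DESeq2 called 452 genes (2.74%) and 0 of the 8, with an adjusted p of 0.235 for Hras and 0.334 for Cdk4. These counts depended on which tumors were in the fit. Without tumor 25, 3 of the 8 had an unadjusted p under 0.05 by edgeR, against 25.2% of all genes. The 3 were Hras at -1.02, Nf1 at 0.99 and Cdk4 at -0.74. Without tumor 29 there were 2, Hras and Cdk4, against 10.4% of all genes. Without tumor 13, 18, 27 or 36 there were 0, against 4.95%, 7.99%, 7.71% and 6.25% of all genes. The median log2 fold change of the 8 was -0.21, and that of all genes was 0.01. In bulk tumors, fewer cells that express a gene and less RNA per cell cannot be told apart. Line went with latency, which was shorter in every FSP1-Cre;NT3 tumor, and in part with site.

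**Figure D2:**
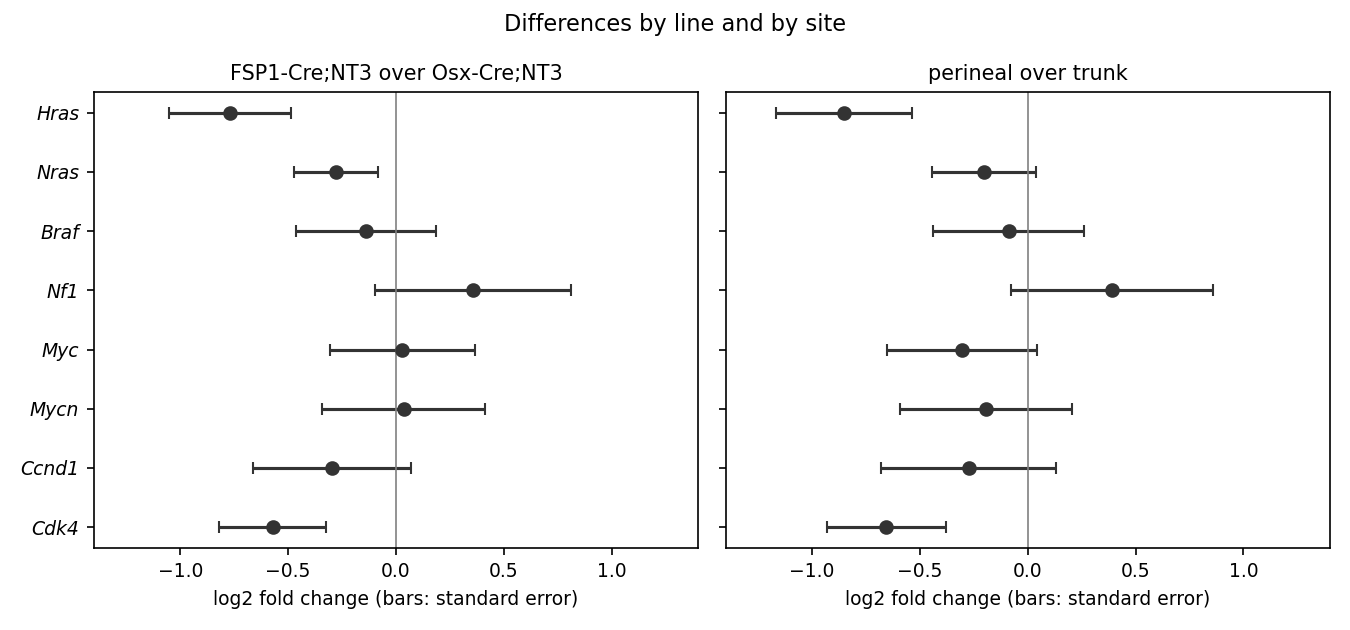
Log2 fold changes of the 8 genes between lines (FSP1-Cre;NT3 over Osx-Cre;NT3) and between sites (perineal over trunk), from edgeR, with bars of 1 standard error. Hras and Cdk4 lie farthest below 0 in both comparisons, at -0.77 and -0.57 between lines and -0.85 and -0.65 between sites, and none of the 8 passed the adjusted test.

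By site, Hras and Cdk4 were again the 2 genes with the lowest fold changes. Both perineal tumors had less of each than all 4 trunk tumors. For Hras the log2 fold change, perineal over trunk, was -0.85 with a standard error of 0.32 (edgeR's unadjusted p = 0.0303, adjusted p = 0.413), and for Cdk4 it was -0.65 with a standard error of 0.28 (unadjusted p = 0.0489, adjusted p = 0.475). At that unadjusted threshold, 1.63% of the 16971 genes tested were lower in perineal tumors, and sites that did not overlap, with perineal lower, were seen for 9.36% of them and for 2 of the 8, while perineal tumors were higher without overlap for 0 of the 8 and 10.3% of all genes. edgeR called 0 genes by site (0%), with 1784 at an unadjusted p under 0.05, and DESeq2 called 738 (4.27%), of which 0 were among the 8. Both perineal tumors came from FSP1-Cre;NT3 mice and share those tumors with the comparison of lines, so these are not 2 independent results. Without tumor 36, which leaves tumor 27 as the only perineal tumor, the log2 fold changes by site were -0.65 for Hras and -0.42 for Cdk4, with no spread of the perineal tumors to set them against. The log2 fold changes of the other 6 by site were -0.20 for Nras, -0.09 for Braf, 0.39 for Nf1, -0.30 for Myc, -0.19 for Mycn and -0.27 for Ccnd1.

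Tumor 36 held the lowest value of 5 of the 8 genes, and it was the lowest tumor for 23.8% of all genes tested. It stood apart in marker genes of several cell types, whose summed levels are given as CPM. Its basal keratinocyte markers (6 genes, 4 of them lowest in tumor 36) summed to 5741 CPM against 10094 to 14652 in the other 5 tumors. Its simple-epithelium markers (5 genes, 3 of them highest in tumor 36) summed to 4082 CPM against 444 to 863. Its smooth muscle and myoepithelial markers (5 genes) summed to 2317 CPM against 240 to 546, adipocyte markers (5 genes) to 128 CPM against 2.53 to 36.2 and neutrophil markers (3 genes) to 440 CPM against 9.60 to 138. Macrophage markers (4 genes) summed to 582 CPM in tumor 36 against 237 to 401, and B cell markers (4 genes) to 15.9 CPM against 6.87 to 12.7. T cell markers (4 genes), at 52.6 CPM, lay within the 24.6 to 110 of the other tumors. Along the comparison of lines, the 6 fibroblast markers summed to 5194 to 6742 CPM in Osx-Cre;NT3 and 11545 to 15001 CPM in FSP1-Cre;NT3 tumors. The 4 endothelial markers summed to 87.1 to 210 CPM in Osx-Cre;NT3 and 223 to 334 CPM in FSP1-Cre;NT3 tumors. No gene of these lists was at 0 in all tumors. The paper reports staining for αSMA (Acta2) in tumor cells and for CK19 (Krt19) in part of each tumor mass. The lists that hold these genes therefore need not mark cells other than tumor cells. The part of these cell types in the levels of the 8 genes was not tested.

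Tumors 13 and 18 differed from the others in a way that went with gene length. Among the 3238 tested genes of up to 1500 bases, the median log2 difference from the mean of the 6 tumors was 0.35 in tumor 13 and 0.49 in tumor 18, and among the 1696 genes over 6000 bases it was -0.34 and -0.58. Tumor 25, of the same line, went the other way, with -0.36 and 0.39, and the FSP1-Cre;NT3 tumors were at -0.24 to -0.10 and 0.11 to 0.28. Between lines, 67.4% of the short genes and 21.9% of the long genes were lower in FSP1-Cre;NT3 tumors. Of the 8 genes, Cdk4 is the shortest at 1346 bases and Nf1 the longest at 11847 bases. The submitters' design text gives an average RNA integrity number of 7.7 in the Osx-Cre;NT3 line, with 8.5 in the other line.

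With an offset for gene length in each tumor, chosen after the data had been seen, the fold changes of the 8 genes moved. That of Cdk4 went to -0.34 with a standard error of 0.20 (edgeR's unadjusted p = 0.135), and that of Nf1 to 0.03 with a standard error of 0.18. Hras was at -0.71 with a standard error of 0.24 (unadjusted p = 0.0236), Nras at -0.43 with a standard error of 0.11 (unadjusted p = 0.00697) and Braf at -0.50 with a standard error of 0.14 (unadjusted p = 0.00942), each by edgeR with an adjusted p of 0.389. Thus 3 of the 8 genes were lower at an unadjusted p under 0.05 in this fit, against 5.19% of all genes, and 0 were higher, against 7.29%, and 0 genes passed the adjusted test. The part of RNA quality in these differences was not tested.

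**Figure D3:**
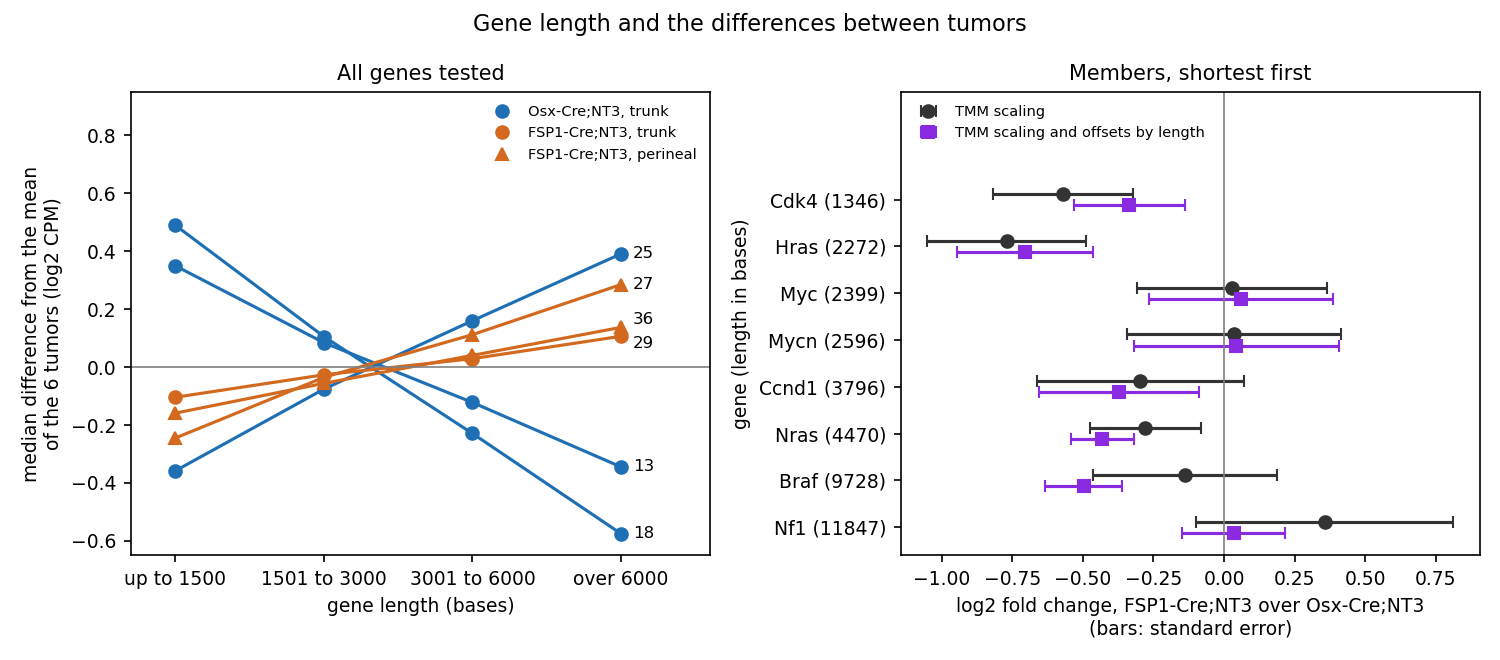
Left, the median difference of all tested genes from the mean of the 6 tumors (log2 CPM) by class of gene length, 1 line per tumor. Right, log2 fold changes of the 8 genes, FSP1-Cre;NT3 over Osx-Cre;NT3, shortest gene first, with TMM scaling alone and with added offsets by length (bars, standard error). Tumors 13 and 18 run from above 0 for short genes to below 0 for long ones and tumor 25 the other way, and with the offsets Cdk4 goes from -0.57 to -0.34 and Nf1 from 0.36 to 0.03.

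To compare genes with one another, RPKM values were used, which divide by gene length. Cdk4 had a mean of 171 ± 39.8 RPKM (SD, n = 6, as for the values that follow) and was 305th of the 23358 entries. Ccnd1 had 83.2 ± 31.9 RPKM, Hras 48.4 ± 15.6, Myc 28.2 ± 8.38 and Nras 21.8 ± 3.92. Mycn had 4.73 ± 1.57 RPKM, Braf 3.30 ± 1.11 and Nf1 2.47 ± 1.07, the last at rank 10704. In this order, 3 neighbouring pairs kept it in 6 of 6 tumors: Cdk4 over Ccnd1 at a ratio of 2.12, Hras over Myc at 1.71, and Nras over Mycn at 4.72. The other 4 neighbouring pairs (Ccnd1 over Hras, Myc over Nras, Mycn over Braf, Braf over Nf1) were in order in 5 of 6 tumors, at ratios of 1.25 to 1.70. By a two-sided exact sign-flip permutation test, 0 of the 7 pairs passed after adjustment over the 7 (smallest p = 0.03125, adjusted p = 0.0729), and 0.03125 is the smallest p that 6 tumors allow. The neighbours and their direction were set by the same values that were tested, so the order is a description.

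The 8 genes were then set beside relatives of the same family in the same tumors. Hras exceeded Nras in 6 of 6 tumors, at a mean ratio of 2.14 in RPKM that ran from 1.39 in tumor 36 to 3.67 in tumor 18. Myc exceeded Mycn 5.90-fold (4.58 to 7.50 over the tumors), and it exceeded Mycl, a family member first found in lung cancer, only 1.16-fold (1.06 to 1.30). Myc thus made up 46.9% to 51.5% of the RPKM of the MYC family in a tumor, Mycl 39.6% to 45.0% and Mycn 6.38% to 10.1%. This split was narrow although the level of Myc itself varied between 50.3 and 109 CPM.

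Braf was set beside Araf, another RAF kinase, and was below it in every tumor. Araf had 17.4 ± 1.74 RPKM (SD, n = 6), and its level was 5.32 times that of Braf in the mean, from 3.49 times in tumor 25 to 7.09 times in tumor 18.

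Among the D-type cyclins, Ccnd1 exceeded Ccnd2 by a mean ratio of 4.22 and Ccnd3 by 3.71. In tumor 36, Ccnd1 had 53.9 RPKM and Ccnd2 42.3 RPKM, and in the other 5 tumors Ccnd2 had 5.84 to 25.6 RPKM. Ccnd1 therefore made up 44.7% of the family in tumor 36 and 66.3% to 74.3% in the others, and Ccnd2 35.1% against 7.41% to 16.2%. Cdk4 exceeded its relative Cdk6 64.9-fold in the mean, from 33.9-fold in tumor 25 to 146-fold in tumor 13, and made up 97.2% to 99.4% of the pair. All 7 of these family comparisons had the same sign in 6 of 6 tumors, which gave each the smallest p possible by the two-sided exact sign-flip permutation test (p = 0.03125, adjusted p over the 7 comparisons = 0.03125). These pairs were picked after the data had been seen.

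**Figure D4:**
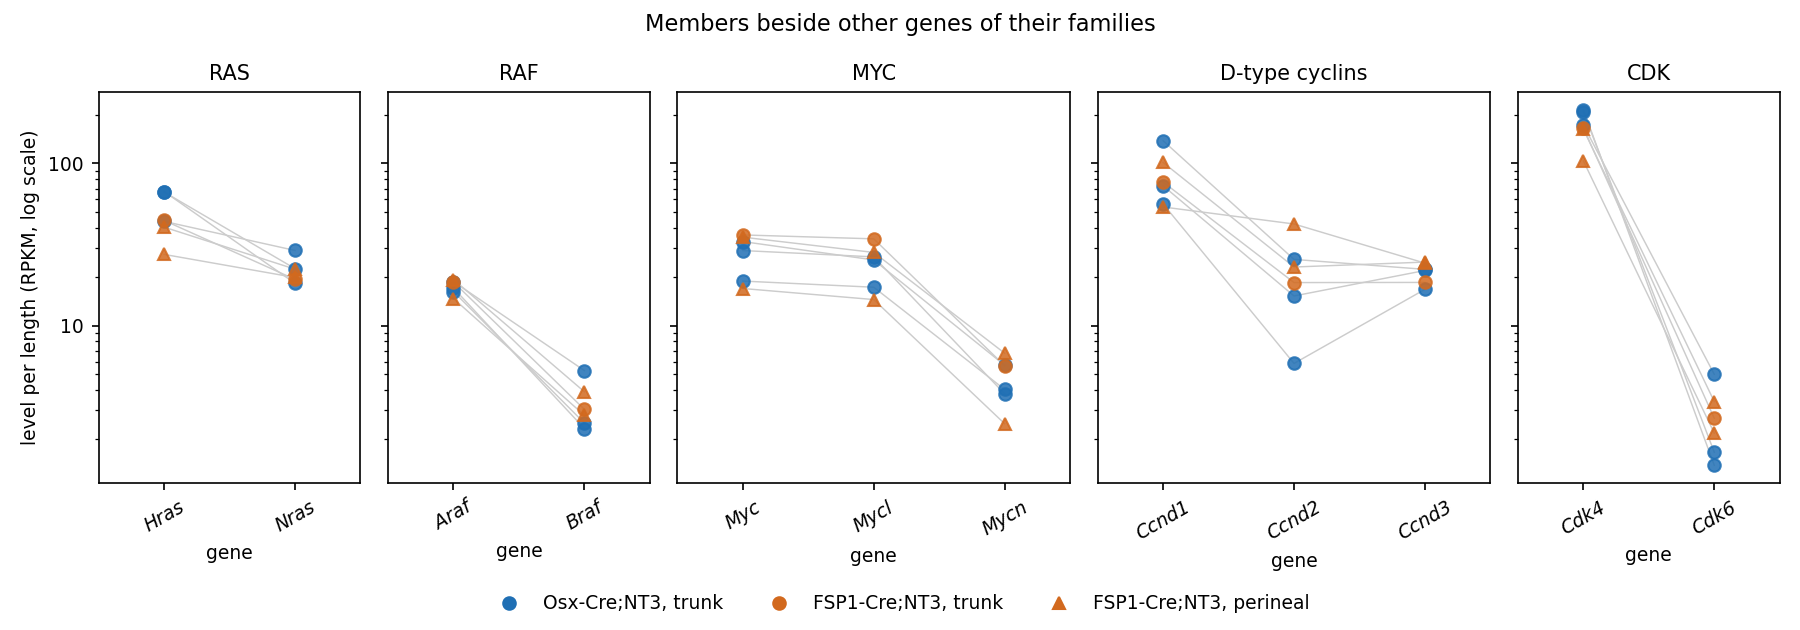
Levels per length (RPKM, log axis) of the members and their relatives in each of the 6 tumors, grouped by family, with grey lines joining the values of 1 tumor. Cdk4 lies far above Cdk6 and Braf lies below Araf in every tumor, Myc and Mycl lie close together, and the highest Ccnd2 triangle, 42.3 RPKM, is tumor 36.

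The lists of genes around RAS gave no adjusted call between the lines by edgeR. Fold changes of list genes, here and below, are from the fit without offsets by gene length, and the part of length in them was not tested. Of 17 relatives of RAS, exchange factors and adaptors, at an unadjusted p under 0.05 FSP1-Cre;NT3 tumors had more of 2 and less of 3, against 7.31% and 3.47% of all genes, and the median log2 fold change was 0.10. Rasgrp4, an exchange factor of mast cells and other myeloid cells, had 4.02 to 4.24 CPM in Osx-Cre;NT3 and 8.11 to 11.0 CPM in FSP1-Cre;NT3 tumors. Its log2 fold change was 1.27 with a standard error of 0.28 (edgeR's unadjusted p = 0.00267, adjusted p = 0.432), and it was the 1 gene of these lists that DESeq2 called between lines. Sos2, an exchange factor, was at 1.10, and the RAS relatives Rras, Mras and Rras2 were at -0.63, -0.70 and -0.47 (unadjusted p = 0.00880, 0.0252 and 0.0383 by edgeR), with lines that did not overlap, as for 7.97% of all genes in that direction. Rras2 was named after its value had been seen. Ptpn11, the phosphatase SHP2 and the most abundant gene of the list at 130 ± 33.8 CPM (SD, n = 6), had a log2 fold change of 0.10, and Rasgrf2, farthest from 0 at 1.27, had 1.49 ± 0.913 CPM.

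The brakes on RAS, 14 genes beside Nf1, had a median log2 fold change of 0.33, with 1 higher and 0 lower at an unadjusted p under 0.05, and 1 of 14 is near the 7.31% of all genes that were higher. That gene was Spry1, a feedback inhibitor of receptor signaling, with 9.04 to 11.6 CPM in Osx-Cre;NT3 and 13.2 to 20.3 CPM in FSP1-Cre;NT3 tumors and a log2 fold change of 0.83 (edgeR's unadjusted p = 0.0176, adjusted p = 0.458). Spry4, of the same family, was at 1.04 (unadjusted p = 0.137) and Rasal2, a GTPase-activating protein and the most abundant of the list, at -0.05. Of 9 RAF, MEK, ERK and scaffold genes tested, 1 was higher at an unadjusted p under 0.05, again near the 7.31% of all genes. It was Ksr1, a scaffold, at 1.09 (edgeR's unadjusted p = 0.0252). Pebp1, a RAF inhibitor with 217 ± 66.7 CPM (SD, n = 6), was at -0.54, and the median of the list was -0.08.

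Of the genes whose transcription ERK is known to raise, several had higher values in the perineal tumors. By site, 5 of 10 were higher in perineal tumors at an unadjusted p under 0.05, against 8.88% of all genes, and edgeR's adjusted test passed 0 of them while DESeq2 passed 3, against 4.27% of all genes. The 5 genes, named after their values had been seen, were Egr1, Dusp5, Dusp6, Fosl1 and Ier3. Egr1, an immediate early transcription factor, had 21.4 and 34.6 CPM in perineal tumors 27 and 36 and 5.94 to 9.69 CPM in the 4 trunk tumors, a log2 fold change of 1.89 (edgeR's adjusted p = 0.263, DESeq2's adjusted p = 0.000161). Dusp5, a phosphatase that acts on ERK, was at 1.77 and Fosl1, a partner in AP-1, at 3.50. Fosl1 had only 0.430 and 0.657 CPM in perineal tumors 27 and 36, and 0.0282 to 0.0770 CPM in the trunk tumors. It passed the filter on low counts by site but not between lines. Fosl1 thus adds to the 5 of 10 only through the group where it is high. Dusp6, another ERK phosphatase, had 42.9 and 65.2 CPM in the perineal tumors and 27.2 to 39.5 CPM in the trunk tumors. All 5 were highest in tumor 36, where the neutrophil markers were also highest, and the part of those cells was not tested. The list's median log2 fold change by site was 0.72, and it was 0.34 without tumor 36, which leaves tumor 27 as the only perineal tumor. The medians of all genes by site were -0.02 and -0.03. Both perineal tumors are FSP1-Cre;NT3, so the comparison of lines shares them, and whether these genes differ more by site than by line was not tested. Between lines, the list's median of 0.34 was -0.01 without tumor 36. Egr1 alone, 1 of 9 tested, had an unadjusted p under 0.05 there, against 7.31% of all genes that were higher (log2 fold change 1.55, edgeR's unadjusted p = 0.0228), which was 0.0749 without tumor 36. Dusp4, the most abundant of the list at 46.8 ± 33.0 CPM (SD, n = 6), was at -0.44 between lines.

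The genes around MYC showed no difference between the lines that passed a test. Of 11 partners, antagonists and relatives of MYC, 0 had an unadjusted p under 0.05, against 10.8% of all genes. Their median log2 fold change was 0.20. With so few genes in a list, a count of 0 says little. Mycl, the most abundant, was at 0.06, and Mxd1, which competes with MYC for its partner MAX, at 1.36 with all tumors and 0.24 without tumor 36, where it had its highest level of 220 CPM. Of 20 well-known targets of MYC, 14 had a log2 fold change below 0, against 48.9% of all genes, with a median of -0.18. At an unadjusted p under 0.05 there were 0 of the 20, against 10.8% of all genes. Npm1, a nucleolar protein, was the most abundant at 992 ± 385 CPM (SD, n = 6) and the farthest from 0 at -0.67 (edgeR's unadjusted p = 0.0870), and near-identical copies of Npm1 in the genome make its count uncertain.

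The genes of the G1 step gave a like picture. Of 10 activators beside Ccnd1 and Cdk4, 0 had an unadjusted p under 0.05, against 10.8% of all genes. A count of 0 of 10 again says little. The median log2 fold change was 0.12. Ccnd2 was at 0.77 with all tumors and 0.31 without tumor 36, and E2f2, a transcription factor of S phase and the 1 gene of this list that DESeq2 called by site, at 1.04 and 0.27. Of 10 brakes, 0 had an unadjusted p under 0.05, against the same 10.8% of all genes, and the median was -0.05. Cdkn1a (p21) was the most abundant at 219 ± 75.2 CPM (SD, n = 6) and Cdkn1c (p57) was farthest from 0 at 0.95. Of 10 proliferation genes, 8 had a log2 fold change below 0, against 48.9% of all genes, and 1 was lower at an unadjusted p under 0.05, against 3.47% of all genes. It was Cdk1, the kinase of mitotic entry. Cdk1 had 58.0 to 115 CPM in Osx-Cre;NT3 and 43.2 to 54.4 CPM in FSP1-Cre;NT3 tumors, a log2 fold change of -0.76 (edgeR's unadjusted p = 0.0324, adjusted p = 0.458), while Mki67, the most abundant, was at 0.06.

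Among the 8 genes, Hras and Cdk4 ran most closely together over the 6 tumors, both highest in tumors 13 and 18 and lowest in tumor 36. Nras, Braf and Nf1 were all lowest in tumor 18 and highest in tumor 25. Likeness to the rest of the table was measured as the Pearson correlation of log2 CPM over the 6 tumors with 10320 genes of at least 10 CPM in the mean, and it is a description, since 6 points that share libraries and length effects give many high values. The closest gene was Med11, a Mediator subunit, for Hras, Rhot1 for Nras and Dusp4 for Braf. It was Dopey1 for Nf1, Pkp4 for Myc, Btbd11 for Mycn, Mmachc for Ccnd1 and Serpinb10-ps for Cdk4, with correlations of 0.988 for Btbd11 to 0.999 for Serpinb10-ps. The share of the 10320 genes with a correlation above 0.95 was largest for Nf1 at 5.15% and Hras at 3.82%, and smallest for Nras at 0.31%.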

How the data were processed

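The authors deposited, for each of the 6 tumors, raw counts per gene and RPKM values, with gene positions and lengths, in 1 table. The submitters' processing notes name bcl2fastq, TopHat2 2.0.6, HTSeq and mm10, whereas the methods of the study name trimming, HISAT2 and featureCounts on mm10, and which of these made the deposited counts was not settled. The annotation and the strand setting are not given in the sources used here. All counts were even (0 odd values), as when both ends of a pair are counted, so halved counts were tried. Total counts ranged from 51824408 to 163297772 per tumor, and gene counts made up 77.2% to 81.5% of the library totals behind the RPKM values deposited. Rn45s, a ribosomal RNA entry, took 5.28% to 13.3% of counts.

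The tests on counts used edgeR 4.0.16 under R 4.3.3 (filterByExpr, TMM, glmQLFit, glmQLFTest, Benjamini-Hochberg over all genes tested, adjusted p under 0.05), with no covariate, between lines (3 against 3) and between sites (2 perineal against 4 trunk). DESeq2 1.42.0 was the alternative tool. Each tumor was left out in turn, and other scalings, other filters on low counts (at least 10 counts in every tumor, or none), site or line as a covariate and parts of the tumors were tried. Levels of different genes were compared as log2(RPKM + 0.1) within each tumor by a two-sided exact sign-flip permutation test. CPM for likeness had a prior count of 2. The fits were tested on simulated data first. Tumors are replicates from separate mice.

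The members, gene lists and comparisons were chosen with earlier results of these data known. From each pathway list, the genes with an unadjusted p under 0.05 between lines (at most 4), the most abundant and the one with the largest absolute fold change are named. Of 113 list genes, 112 were found, and not every one is reported here by name. The columns of per-sample values not used numbered 0. Offsets by gene length follow each tumor's trend of log2 CPM on length. Comparisons with benign tissues were not analysed here.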

Additional observations from a re-analysis of the deposited data

How the results depend on the processing

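No paired analysis was possible because the lines share no tumor numbers. Over 14 alternatives, the log2 fold changes of Hras and Cdk4 stayed below 0 in both comparisons, and no member passed the adjusted test in any setting, with edgeR's adjusted p between lines from 0.0828 to 1.00 for Hras and from 0.135 to 1.00 for Cdk4. DESeq2 called 452 genes between lines, 196 without tumor 36 (an alternative added after seeing the data), and 738 by site, against 0 each by edgeR. Leaving out 1 tumor gave 0 to 567 genes by site by edgeR (567 without tumor 27 and 2 without tumor 25), and the cause was not tested. By site, the log2 fold change of Braf became 0.0053 with library sizes alone, 0.043 with line as a covariate and 0.038 in FSP1-Cre;NT3 tumors alone, and that of Nras 0.036 and 0.032 in the latter 2. Leaving out 1 tumor, the log2 fold changes between lines ran from -0.34 to 0.24 for Braf, -0.21 to 0.30 for Myc, 0.02 to 0.99 for Nf1, -0.20 to 0.35 for Mycn and -0.53 to 0.068 for Ccnd1. By site they ran from -0.30 to 0.18 for Braf, -0.86 to 0.087 for Myc, -1.02 to 0.32 for Mycn and -0.74 to 0.068 for Ccnd1. The lower end of each of these ranges by site was without tumor 27, where tumor 36 was the only perineal tumor. The upper ends for Myc, Mycn and Ccnd1 were without tumor 36, where tumor 27 was the only perineal tumor. Of all recomputed log2 fold changes of the 8 genes, 229 kept their direction and side of the threshold and 19 reversed. The order of levels was the same under each alternative, except that a minimum of 1 RPKM in every tumor removed Nf1. The 7 family comparisons became 0 without any 1 tumor, because 5 tumors allow no p below 0.0625. With 3 tumors a line, differences of the size seen here could not be told from the spread between tumors.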
